A study of Mus musculus with 4 samples.

Results

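The transcripts of 10 genes of the bone-forming lineage were examined in mouse bone marrow: Runx2, Sp7, Bglap, Bglap2, Bglap3, Alpl, Ibsp, Dmp1, Phex and Sparc. These genes were chosen by name, out of 55401 genes in the tables. RNA-seq libraries were made from 2 animals of the obesity group (Ob) and 2 of the obesity group with exercise (Ob + Exe), named Ob 1, Ob 2, Ob + Exe 1 and Ob + Exe 2 after their replicate numbers. All were wild-type male C57/B6 mice that began a high-fat diet (HFD) at 8 weeks of age and received it for 6 weeks before the groups were formed. The Ob + Exe mice then ran on a treadmill for 1 h per day on 6 days per week for 12 weeks, and the Ob mice had the diet alone. There was no group on a regular diet, so the comparison is between running and not running under obesity. Each library was taken to be 1 mouse.

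Osteoblasts arise from mesenchymal stem cells of the marrow under the transcription factor Runx2 and then Sp7, which acts downstream of Runx2. Mature osteoblasts secrete a collagen matrix with non-collagenous proteins such as osteocalcin, bone sialoprotein and osteonectin, and the enzyme Alpl lets this matrix mineralize by removing the inhibitor pyrophosphate. Some of them become buried as osteocytes, which express Dmp1 and Phex and control phosphate handling and mineralization from inside the bone.

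The 3 osteocalcin genes lie side by side on the minus strand of chromosome 3 (GRCm38), with Bglap3 at 88368616 to 88372743, Bglap2 at 88377736 to 88378699 and Bglap at 88383501 to 88384464. Bglap and Bglap2 encode the osteocalcin of bone, and the third copy, Bglap3, is known from kidney and other tissues rather than from bone. Their coding sequences are shown here because they are so alike that some reads can be assigned to either Bglap or Bglap2. They were read from the GENCODE vM21 transcripts, 5′ to 3′, with the bases that differ from Bglap in capitals.
Bglap: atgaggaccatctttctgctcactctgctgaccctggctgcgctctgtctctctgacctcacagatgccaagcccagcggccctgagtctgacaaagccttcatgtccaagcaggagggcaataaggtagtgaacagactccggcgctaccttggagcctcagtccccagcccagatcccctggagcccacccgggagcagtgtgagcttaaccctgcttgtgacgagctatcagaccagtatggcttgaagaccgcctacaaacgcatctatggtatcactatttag
Bglap2: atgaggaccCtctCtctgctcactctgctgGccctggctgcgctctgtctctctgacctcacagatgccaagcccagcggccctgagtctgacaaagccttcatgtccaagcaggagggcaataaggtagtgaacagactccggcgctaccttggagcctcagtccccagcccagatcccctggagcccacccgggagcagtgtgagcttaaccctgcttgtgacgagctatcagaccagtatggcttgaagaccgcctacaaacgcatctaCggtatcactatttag
Bglap3: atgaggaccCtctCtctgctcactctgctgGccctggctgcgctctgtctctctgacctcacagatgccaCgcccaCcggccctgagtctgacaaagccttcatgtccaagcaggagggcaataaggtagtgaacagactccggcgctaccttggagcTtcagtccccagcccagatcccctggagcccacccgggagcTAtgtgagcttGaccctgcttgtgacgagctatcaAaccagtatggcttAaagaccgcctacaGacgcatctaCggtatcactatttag
All 3 coding sequences have 288 bases. Bglap and Bglap2 differ at 4 of them, an identity of 98.6%, and share a run of 241 identical bases. Of the 291 windows of 150 bases, the read length, in the Bglap messenger RNA, 92 (31.6%) also occur unchanged in Bglap2. Bglap3 differs from Bglap at 13 coding bases and from Bglap2 at 9, and shares no window of 150 bases with either gene.

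The promoter of Bglap is shown because it holds both elements that were searched for and found in more than 1 member. It is the stretch of 250 bases before the RefSeq start of the gene (GRCm38.p6, chr3:88384467-88384716, minus strand), and capitals mark the letters ACCACA, the core of the site read by RUNX factors, and TATAAA, the TATA box.
Bglap promoter: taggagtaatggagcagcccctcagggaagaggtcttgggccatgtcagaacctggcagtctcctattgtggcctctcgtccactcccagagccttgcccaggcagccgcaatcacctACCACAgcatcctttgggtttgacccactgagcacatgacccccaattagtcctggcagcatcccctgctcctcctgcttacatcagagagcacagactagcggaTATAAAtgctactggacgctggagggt
The ACCACA of this promoter begins 132 bases and the TATAAA 27 bases before the start. The 8 members found in the RefSeq table have 12 promoters there, and the 250 bases before each start were searched on both strands. ACCACA occurred in 3 of the 12 promoters, those of Bglap, Dmp1 and Runx2, and TATAAA in Bglap and in other members. These letters occur in 14% and 12.4% of all 32851 promoters of the table. The letters TAATTA, the core read by homeodomain factors such as Dlx5 and Msx2, are the same on both strands, occurred in Bglap3 only and were held by 4.84% of all promoters. No match overlapped a match of another motif. In Runx2 the ACCACA begins 80 bases before the RefSeq start used, which lies among the distal starts of the gene. The distal start at 44814797 lies upstream of this site. This site is given with 12 bases on each side and the motif in capitals.
Runx2 (chr17:44814690-44814719, minus strand): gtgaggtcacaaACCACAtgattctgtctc

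The libraries came from whole marrow collected by centrifugation, and the values are FPKM, fragments scaled to transcript length and library size, summed over the transcripts of a gene and scaled between libraries. From 8702 to 9952 Mb of aligned bases lay behind a library, and the Ob libraries were the deeper pair. Where reads are named, they are read equivalents, the coverage of a transcript times its length divided by the read length of 150 bases. The Ob libraries also had more genes above 0, with 20663 and 23309 against 17752 and 19291. The labels name bone marrow as the tissue, but also mesenchymal stem cells and fibroblast. Genes of blood cells dominated, with S100a8, a neutrophil calcium-binding protein, at 12006 to 35688 scaled FPKM and Hbb-bs, a hemoglobin chain, at 17631 to 43309. Of the 7 fibroblast markers, Col3a1 and Pdgfra stayed below 0.69 in every library, while Pi16 stood at 29.7 to 42.9, Thy1 at 3.11 to 8.87 and Dpp4 at 2.64 to 5.64. The 8 stroma markers, among them Cxcl12 and Lepr, summed to 139 and 194 in the Ob pair against 141 and 195 in the Ob + Exe pair. In such bulk samples, fewer cells of a type and less RNA per cell cannot be told apart.

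**Figure D1:**
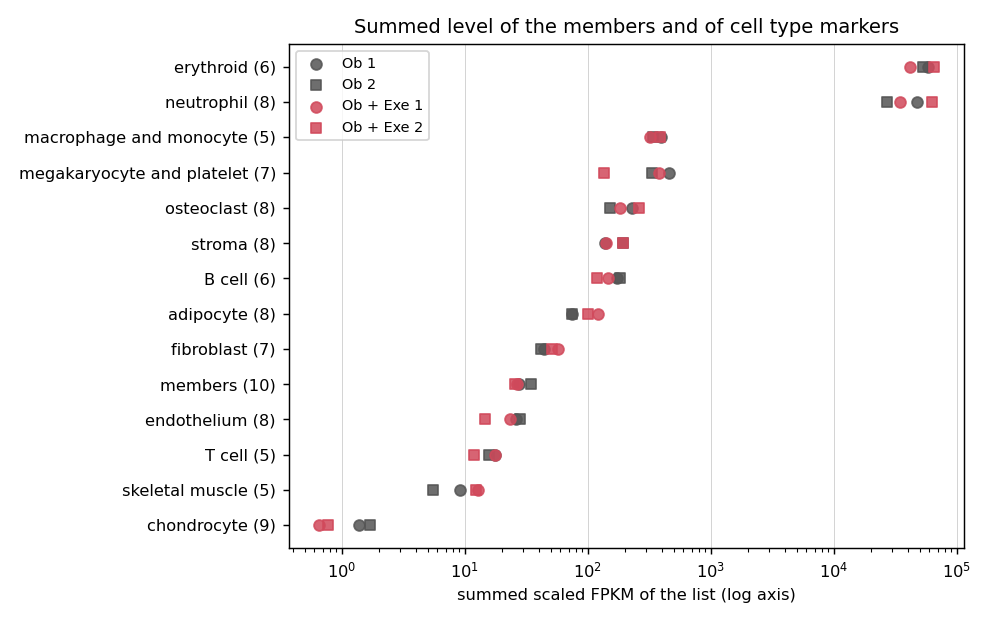
Summed scaled FPKM (log axis) of the 10 members and of the marker lists of 13 cell types in the 4 libraries, with the number of genes of each list in brackets. The members sum to 25.7 to 34.3 scaled FPKM, far below the neutrophil and erythroid lists and near the endothelial list.

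The members together made 27.8 and 34.3 scaled FPKM in the Ob pair against 26.8 and 25.7 in the Ob + Exe pair. Their levels spanned from Sparc, with a mean of 11.8 scaled FPKM over the 4 libraries, to Dmp1 with 0.0242. Between them, in falling order, stood Runx2 with 5.67, Ibsp with 5.54, Bglap with 2.93, Bglap2 with 1.32, Alpl with 0.645, Sp7 with 0.412, Phex with 0.217 and Bglap3 with 0.0962. Only Sparc lay above the gene next to it without any overlap of the libraries' ranges. Each other pair of neighbours in this order overlapped, and Runx2 was above Ibsp in 3 of 4 libraries. The genes that mark osteocytes were low. Sost and Mepe, which encode a Wnt inhibitor and a matrix phosphoglycoprotein of osteocytes, were listed at 0 in all 4 libraries, Dmp1 was at or near 0, and Phex was above 0 in all 4, at 0.143 to 0.281 scaled FPKM. A listed 0 need not mean that a gene was not expressed. The 37 mitochondrial transcripts, which every cell uses, are also listed at 0 in these tables. They were all absent together, so they cannot show what a 0 means for genes such as Sost and Mepe. The set is described by its genes.

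**Figure D2:**
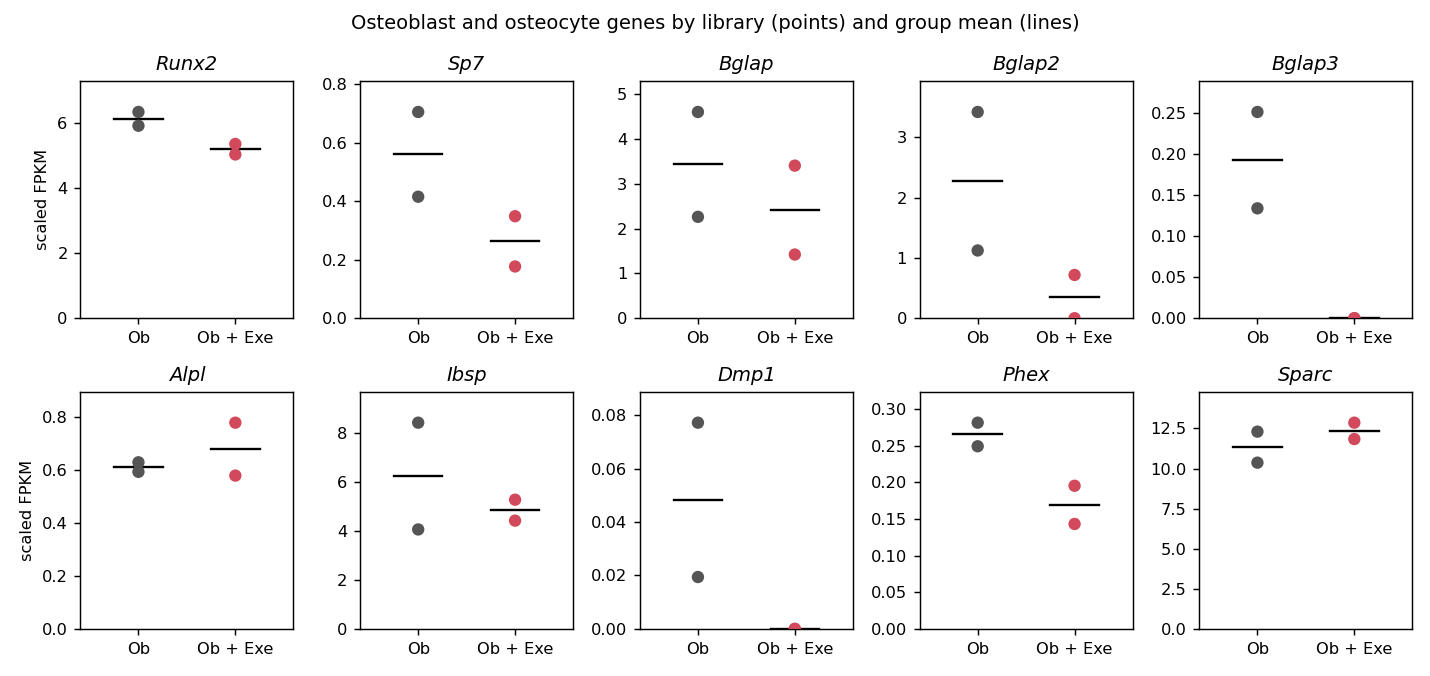
Scaled FPKM of each of the 10 members in the 2 Ob and the 2 Ob + Exe libraries (points) with the group means (lines), each panel from 0 on its own scale. Both Ob + Exe points lie below both Ob points for Runx2, Sp7, Bglap2, Bglap3, Dmp1 and Phex, and the groups overlap for Bglap, Alpl, Ibsp and Sparc.

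The question was whether the genes of bone formation differed in the marrow after exercise. Of the 10 members, 8 reached the minimum mean of 0.1 FPKM and were tested with limma's moderated test on log2(scaled FPKM + 0.1), in which a call needed a log2 fold change past 1 in either direction and a p below 0.05 before adjustment. Among them 1, Bglap2, was called lower and 0 were called higher. Over all 18596 genes tested, 690 were called, 3.71%. Of these 508 (2.73% of the genes tested) were lower and 182 (0.979%) higher in Ob + Exe, a split that became 416 and 246 after quantile normalization. After Benjamini-Hochberg adjustment in limma, 0 genes stayed below 0.05, while 933 genes, 5.02%, were below it before adjustment. The log2 fold change was below 0 for 6 of the 8 members and above 0 for 2, against 52.1% of all genes below 0. Its median was −0.36 for the 8 members and −0.02 for all genes tested. The groups did not overlap for 4 of the 8 members tested, each time with Ob + Exe lower. Over all genes 32.7% did not overlap, 18.7% with lower and 14.0% with higher values in Ob + Exe. Bglap3 and Dmp1, which were too low to test, were above 0 in Ob only. The shares given here do not cover genes too low to test, and the Ob libraries were the deeper pair.

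Runx2 is the transcription factor that commits cells to the osteoblast lineage, and lies on the minus strand of chromosome 17 at 44495987 to 44814797. Its scaled FPKM was 6.35 in Ob 1, 5.93 in Ob 2, 5.05 in Ob + Exe 1 and 5.37 in Ob + Exe 2. Both Ob libraries were thus the higher ones, and the gap between the groups was slightly wider than the spread within either. The means were 6.14 ± 0.30 in Ob and 5.21 ± 0.228 in Ob + Exe (SD, n = 2), 15.2% lower, and the log2 fold change of −0.23 ± 0.26 (SE) did not pass (limma, adjusted p = 0.969). Runx2 is transcribed from a distal start, whose product is typical of osteoblasts and mature chondrocytes, and from a proximal start that is used more widely, in cells outside the skeleton too. Of the 14 transcripts in the tables, 8 begin at the distal start, at 44814226 to 44814797, and 6 at the proximal start, at 44734693 to 44736648. The proximal transcripts held 100% of the Runx2 FPKM in Ob 1, Ob + Exe 1 and Ob + Exe 2 and 99.3% in Ob 2. The distal transcripts had a value above 0 in Ob 2 only, with 17.2 read equivalents, against 1878 to 2754 for the proximal transcripts in the 4 libraries. The promoter site printed for Runx2 belongs to a distal start, which is not where the transcripts with nearly all of the FPKM begin. Runx2 overlaps Supt3, which runs on the plus strand, over 37.6 kb. The counting is not stated to have used the strand, so reads there cannot be told apart. An overlap of this length at either end of Runx2 does not reach the transcript ENSMUST00000113572. That transcript spans 44604001 to 44736648 and held 94.1% to 100% of the Runx2 FPKM in the libraries. Supt3, a transcription coactivator subunit, had 4.30 and 3.97 scaled FPKM in the Ob pair against 4.92 and 5.08 in the Ob + Exe pair, the opposite direction to Runx2.

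Sp7, or osterix, is the zinc finger factor required for osteoblast differentiation, at 102356606 to 102367182 on chromosome 15. Its scaled FPKM was 0.705 in Ob 1, 0.416 in Ob 2, 0.177 in Ob + Exe 1 and 0.349 in Ob + Exe 2. The groups did not overlap, yet the gap between Ob 2 and Ob + Exe 2 was smaller than the spread within either group. The mean was 0.561 ± 0.205 in Ob and 0.263 ± 0.122 in Ob + Exe (SD, n = 2), and the log2 fold change of −0.87 ± 0.66 (SE) did not pass (limma, adjusted p = 0.960). In Ob 1, 72.1% of the Sp7 FPKM was assigned to a transcript (ENSMUST00000229464) that was listed at 0 in the other 3 libraries. The transcript that carried the gene there (ENSMUST00000078508) had 0.197 in Ob 1, against 0.416, 0.177 and 0.349 in Ob 2, Ob + Exe 1 and Ob + Exe 2.

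Osteocalcin is the hormone-like, calcium-binding protein made by mature osteoblasts. Bglap had 2.26 scaled FPKM in Ob 1, 4.61 in Ob 2, 3.41 in Ob + Exe 1 and 1.42 in Ob + Exe 2. The groups overlapped, since Ob + Exe 1 lay between the Ob libraries, and within each group the higher library had 2.03 and 2.40 times the lower. The means were 3.44 ± 1.66 and 2.42 ± 1.40 (SD, n = 2), with a log2 fold change of −0.53 ± 0.57 (SE; limma, adjusted p = 0.965). Bglap2 had 1.12 in Ob 1, 3.42 in Ob 2, 0 in Ob + Exe 1 and 0.717 in Ob + Exe 2. The groups did not overlap, and the higher Ob library had 3.04 times the lower. The means were 2.27 ± 1.62 and 0.359 ± 0.507 (SD, n = 2), and the log2 fold change was −2.86 ± 1.12 (SE; limma, adjusted p = 0.960). This value rests on 107 read equivalents in Ob 2, 18.6 in Ob + Exe 2 and 0 in Ob + Exe 1. With 3 read equivalents, or 0.102 scaled FPKM, in place of the 0, the difference of the mean log2 values was −2.86. No pseudocount was added for that value. The log2 ratio of the arithmetic group means was −2.47. Both are different measures from the fold change of the fit, so they cannot show how far the fit depends on the 0. The call was lost without Ob 1 (log2 fold change −3.62), without Ob 2 (−2.10) and without Ob + Exe 1 (−1.35) in the same limma fit, and under 6 other settings, with the value below 0 each time.

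The shares of the osteocalcin FPKM assigned to each gene and transcript differed from library to library. Whether reads shared between Bglap and Bglap2 had a part in this was not tested. The Bglap transcript of 4 exons (ENSMUST00000076048) had 1.88, 3.52 and 2.21 scaled FPKM in Ob 1, Ob 2 and Ob + Exe 1 and was listed at 0 in Ob + Exe 2. The other Bglap transcript, of 3 exons (ENSMUST00000128732), was at 0.385 and 1.09 in Ob and at 1.20 and 1.42 in Ob + Exe. Thus Bglap2 was at 0 in 1 Ob + Exe library and the 4-exon Bglap transcript in the other, where the 3-exon transcript held all of the Bglap value. A zero for a gene that is well measured elsewhere also occurred outside this locus, where 78 of 11897 genes with at least 1 FPKM in 3 or more libraries were listed at 0 in the remaining library. Bglap2 made up 31.9% of the summed FPKM of the 3 genes in Ob 1, 41.3% in Ob 2, 0% in Ob + Exe 1 and 33.5% in Ob + Exe 2.

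The sum of Bglap, Bglap2 and Bglap3 depends less on how reads are assigned among the 3 genes. It was 3.52 in Ob 1, 8.28 in Ob 2, 3.41 in Ob + Exe 1 and 2.14 in Ob + Exe 2. Ob 2 stood far above the rest, while Ob 1 was only just above Ob + Exe 1. The means were 5.90 ± 3.36 and 2.77 ± 0.897 (SD, n = 2), 53.0% lower in Ob + Exe, and the log2 fold change of −0.97 ± 0.50 (SE) did not pass (limma, adjusted p = 0.960). An exact permutation test over the 4 libraries gave a two-sided p of 0.333, the smallest that 2 against 2 can give. Without Ob 2 the log2 fold change of the sum was −0.38. The osteocalcin signal was 116 and 269 read equivalents in the Ob pair against 81.3 and 46.1 in the Ob + Exe pair. Bglap3 had 0.134 and 0.251 scaled FPKM in Ob and was listed at 0 in both Ob + Exe libraries, below the minimum for the test, and the depth and the number of genes above 0 were also lower in Ob + Exe.

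**Figure D3:**
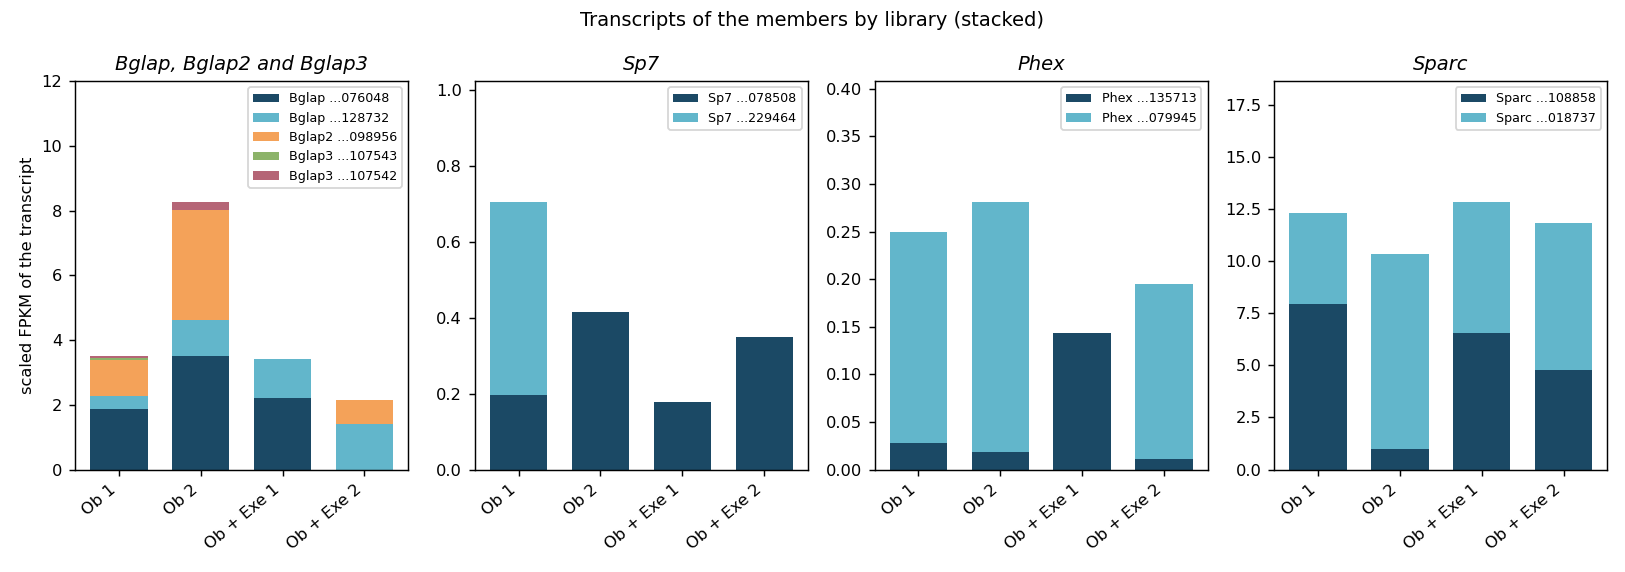
Scaled FPKM of the transcripts of the 3 osteocalcin genes, Sp7, Phex and Sparc in each library, stacked, each panel on its own scale and with the last 6 digits of the Ensembl transcript numbers. The transcript that holds the FPKM of a gene changes between libraries of the same group, as for Sp7 in Ob 1, Phex in Ob + Exe 1 and Sparc in Ob 2.

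Alpl, the tissue-nonspecific alkaline phosphatase, lies on chromosome 4 at 137741733 to 137796384. It had 0.629 and 0.593 scaled FPKM in Ob 1 and Ob 2, and 0.779 and 0.579 in Ob + Exe 1 and Ob + Exe 2. The groups overlapped, and Ob + Exe 1 was the highest library. The means were 0.611 ± 0.0254 and 0.679 ± 0.141 (SD, n = 2), with a log2 fold change of 0.12 ± 0.53 (SE; limma, adjusted p = 0.985). All of it was assigned to the full transcript of 12 exons. Alkaline phosphatase of this gene is also known from neutrophils, whose 8 markers summed to 47315 and 27155 in the Ob pair against 34969 and 62695 in the Ob + Exe pair; their part in the Alpl level was not tested.

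Ibsp, bone sialoprotein, is a secreted acidic phosphoprotein that nucleates mineral, and lies on chromosome 5 at 104299171 to 104311469. Its scaled FPKM was 4.06 in Ob 1, 8.41 in Ob 2, 4.42 in Ob + Exe 1 and 5.27 in Ob + Exe 2. Ob 2 was the highest, and Ob 1 lay below both Ob + Exe libraries, so the groups overlapped. The means were 6.23 ± 3.08 and 4.84 ± 0.603 (SD, n = 2), and the log2 fold change was −0.27 ± 0.41 (SE; limma, adjusted p = 0.976). Ibsp, Bglap and Bglap2 all had their highest value in Ob 2, with 2.07, 2.03 and 3.04 times the level of Ob 1. Without Ob 2 the log2 fold change of Ibsp was 0.23. With a single transcript and 533 to 1154 read equivalents per library, Ibsp was measured more deeply than any osteocalcin gene.

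Sparc, or osteonectin, binds collagen and calcium and is abundant in bone matrix, and lies on chromosome 11 at 55394500 to 55423183. It had 12.3 scaled FPKM in Ob 1, 10.4 in Ob 2, 12.9 in Ob + Exe 1 and 11.8 in Ob + Exe 2. The 4 values were close and the groups overlapped. The means were 11.3 ± 1.37 and 12.3 ± 0.723 (SD, n = 2), with a log2 fold change of 0.13 ± 0.23 (SE; limma, adjusted p = 0.976), the smallest SE among the members tested. The share of its first main transcript (ENSMUST00000108858) was 64.4% in Ob 1, 9.64% in Ob 2, 51.0% in Ob + Exe 1 and 40.4% in Ob + Exe 2, so the gene sum was steadier than its parts. Sparc is also expressed by megakaryocytes, stroma and endothelium. The 7 megakaryocyte and platelet markers summed to 458 and 334 in the Ob pair against 378 and 136 in the Ob + Exe pair, and the 8 endothelial markers to 26.1 and 28.1 in the Ob pair against 23.4 and 14.5 in the Ob + Exe pair; their part in the Sparc level was not tested.

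Dmp1, an acidic matrix protein of osteocytes, lies on chromosome 5 at 104202613 to 104214102, 85.1 kb from Ibsp. The 2 Ob libraries had 0.0194 and 0.0772 scaled FPKM, and it was listed at 0 in both Ob + Exe libraries. The Ob values correspond to 3.65 and 14.2 read equivalents, and the mean was below the minimum for the test. With no minimum, its log2 fold change in limma was −0.54 ± 0.27 (SE; adjusted p = 0.843), a size that depends on the pseudocount since both Ob + Exe libraries are at 0. Phex, an endopeptidase of the cell membrane that limits circulating FGF23, lies on chromosome X at 157162075 to 157415312. It had 0.249 in Ob 1, 0.281 in Ob 2, 0.143 in Ob + Exe 1 and 0.195 in Ob + Exe 2, and the groups did not overlap. The means were 0.265 ± 0.0228 and 0.169 ± 0.0368 (SD, n = 2), and the log2 fold change of −0.45 ± 0.70 (SE) did not pass (limma, adjusted p = 0.976). In Ob + Exe 1 all of it came from a transcript of 1 exon at the end of the gene (ENSMUST00000135713), with 30.0 read equivalents, and the full transcript of 22 exons was listed at 0. That full transcript had 0.222 and 0.263 scaled FPKM in Ob and 0.184 in Ob + Exe 2.

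**Figure D4:**
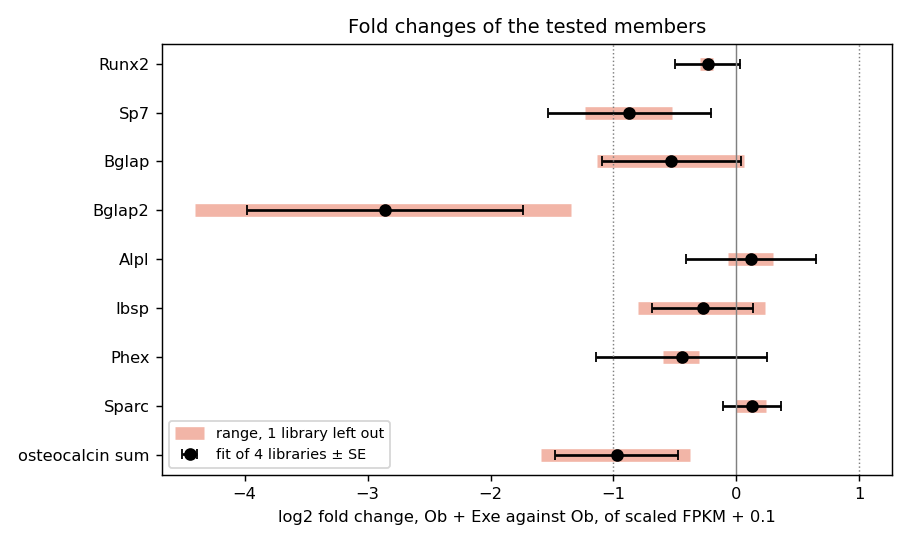
Log2 fold change of Ob + Exe against Ob on the log2(scaled FPKM + 0.1) scale for the 8 members tested and the osteocalcin sum (points, with SE), and its range when each library was left out in turn (bars); dotted lines mark −1 and 1. The range spans 0 for Bglap, Alpl, Ibsp and Sparc and stays below 0 for Runx2, Sp7, Bglap2, Phex and the osteocalcin sum.

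In addition, 3 lists of other genes of the pathway were counted in the same limma fit. Of the 24 osteoblast regulators, 20 were tested, and 14 had a log2 fold change below 0 and 6 above. In this list 2 genes, 10% of those tested, were called lower and 0 higher, against 2.73% and 0.979% of all genes tested. Vdr, the vitamin D receptor, had 0.626 and 0.707 scaled FPKM in the Ob pair against 0.124 and 0.0716 in the Ob + Exe pair, with a log2 fold change of −1.96 ± 0.66 (SE; limma, adjusted p = 0.960). Pth1r, the receptor for parathyroid hormone, had 1.33 and 1.79 in the Ob pair against 0.584 and 0.428 in the Ob + Exe pair, with −1.45 ± 0.49 (SE; limma, adjusted p = 0.960). Both genes were lower in both Ob + Exe libraries than in either Ob library. The regulators with the highest levels, Atf4, Ctnnb1 and Cbfb, are expressed in most cells, and had means of 145, 71.3 and 39.3 scaled FPKM and log2 fold changes of −0.27, 0.16 and 0.20, with overlapping groups. Cbfb is the partner protein of Runx2.

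Of 28 other genes of bone matrix and mineralization, 26 were tested, and 12 were below 0 and 14 above. Here 2 genes, 7.69% of those tested, were called lower and 0 higher, against the same shares of all genes, 2.73% and 0.979%. Spp1, osteopontin, an acidic phosphoprotein that lies 124 kb from Ibsp on chromosome 5, had 30.3 and 45.1 scaled FPKM in the Ob pair against 14.6 and 19.8 in the Ob + Exe pair (log2 fold change −1.11 ± 0.29, SE; limma, adjusted p = 0.960). Col1a1, a chain of the type I collagen of bone, had 3.13 and 3.05 in the Ob pair against 1.18 and 1.84 in the Ob + Exe pair (−1.02 ± 0.39, SE; limma, adjusted p = 0.960). Both were known as changed genes of these libraries when the list was written, so their calls are not independent evidence. The matrix genes did not share a direction: 5 had lower values without overlap in Ob + Exe and 6 had higher values without overlap. Over all genes tested these shares were 18.7% and 14.0%. Ifitm5, an osteoblast membrane protein that was looked up after its values were seen, was among the higher, with 0.437 and 2.10 in the Ob pair against 3.67 and 2.19 in the Ob + Exe pair (1.43 ± 0.74, SE; limma, adjusted p = 0.960). Of the genes with the highest levels, the phosphate transporter Slc20a1 had a mean of 75.9 and fibronectin, Fn1, of 50.4 scaled FPKM, with log2 fold changes of 0.07 and 0.39.

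Of the 15 other osteocyte genes, 8 were tested, and 0 were called in either direction, with 4 below 0 and 4 above. Those with the highest levels were Mmp14, a membrane protease, with a mean of 5.01 scaled FPKM, Galnt3, the enzyme that protects FGF23, with 2.88, and Gja1, the gap junction protein of bone cells, with 2.52. Their log2 fold changes were −0.34, 0.57 and −0.55. None of these genes is particular to osteocytes. Fgf23, the phosphate hormone of osteocytes, was above 0 in Ob + Exe 2 only, with 0.0877.

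**Figure D5:**
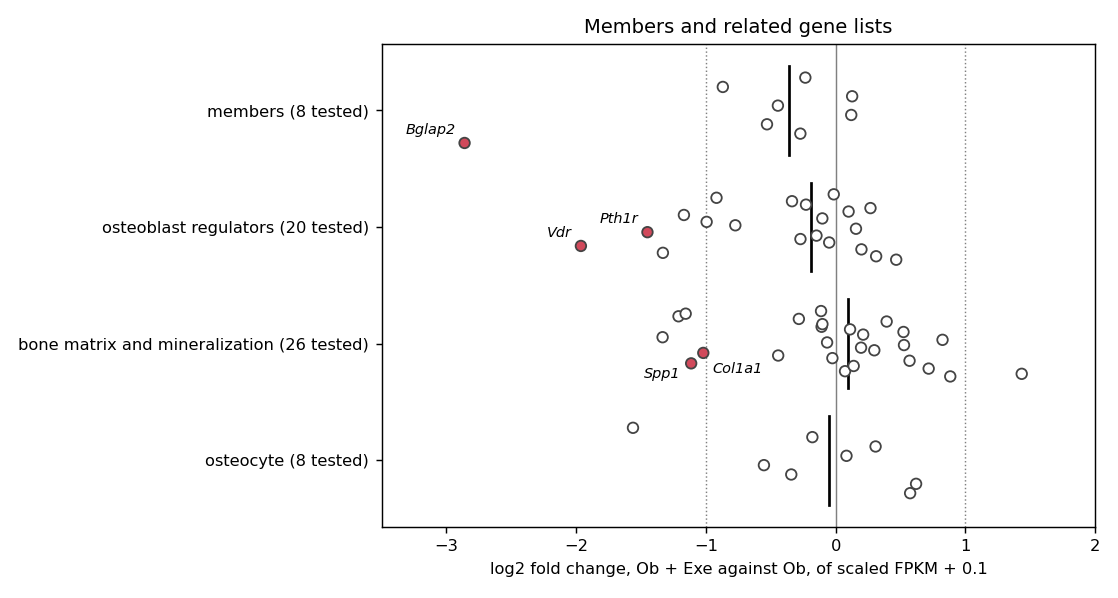
Log2 fold change of Ob + Exe against Ob on the log2(scaled FPKM + 0.1) scale for the tested members and 3 lists of related genes (points; red marks a called gene, vertical bars the list medians, dotted lines −1 and 1). Called genes are Bglap2, Vdr, Pth1r, Spp1 and Col1a1, each lower in Ob + Exe, and the medians are −0.36, −0.19, 0.09 and −0.05.

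The summed levels of 6 of the 13 marker lists, chondrocyte, fibroblast, skeletal muscle, adipocyte, B cell and endothelium, also did not overlap between the groups. Over all genes tested 32.7% did not overlap, a share of single genes and not of sums. The 9 chondrocyte markers, of which Matn3 was at 0 in all libraries and Acan and Sox9 at or near 0, summed to 1.39 and 1.71 in the Ob pair against 0.658 and 0.770 in the Ob + Exe pair, with none called. The 7 fibroblast markers summed to 44.1 and 41.6 in the Ob pair against 57.1 and 51.0 in the Ob + Exe pair, most of it Pi16, and none was called. The 5 skeletal muscle markers summed to 9.24 and 5.54 in the Ob pair against 12.9 and 12.3 in the Ob + Exe pair, and 1 of them, Acta1, was called higher. The 8 adipocyte markers summed to 75.3 and 75.2 in the Ob pair against 122 and 101 in the Ob + Exe pair, with none called. Most of it was Fabp4, with 59.5 and 57.5 in the Ob pair against 105 and 77.7 in the Ob + Exe pair. Adipoq and Lpl also had higher means in Ob + Exe, Lep was at 0 and the remaining adipocyte markers had lower means. The 6 B cell markers summed to 174 and 185 in the Ob pair against 147 and 119 in the Ob + Exe pair, and 1 of them, Cd79a, was called lower. In the other lists, Atp6v0d2 of osteoclasts was called higher and Gp1ba of platelets lower. Of all genes tested, 2.73% were called lower and 0.979% higher. The part of these cell types in the values of the members was not tested. The stroma markers, by contrast, overlapped between the groups.

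The members with a mean of at least 1 FPKM are Runx2, Bglap, Bglap2, Ibsp and Sparc. Their mean centred log2 profile was 0.06 in Ob 1, 0.70 in Ob 2, −0.58 in Ob + Exe 1 and −0.17 in Ob + Exe 2. The low value in Ob + Exe 1 came from Bglap2, which was listed at 0 there. The profile and its nearest genes thus depend on that 0. Among 12404 other genes with at least 1 FPKM, the nearest to this profile over the 4 libraries were Qrsl1, Gm13091, Gm47813, 6030468B19Rik and Gm26770, with root mean square differences of 0.04, 0.05, 0.05, 0.06 and 0.06 on the log2 scale, against a median of 0.54. Qrsl1 had 6.41 and 9.71 scaled FPKM in the Ob pair against 4.25 and 5.46 in the Ob + Exe pair. With 4 points, such likeness is a description only.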

How the data were processed

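Poly-A RNA of bone marrow was sequenced in 4 libraries, 2 per group. Per the study's methods, the authors used fastp for trimming, discarded rRNA reads, mapped to GRCm38 by HISAT2, applied a SAMtools filter and ran StringTie with the GENCODE vM25 annotation. The deposited tables give, for 142604 transcripts, the read coverage, a signal not scaled for depth, and the FPKM. Whole reads could not be recovered from them (3.58% to 5.36% of transcripts gave whole numbers, to within 0.01 reads), so reads are given as read equivalents, coverage times length divided by 150 bases.

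Transcript FPKM were summed per gene and divided by median-of-ratios factors (0.949 to 1.03, from 12235 genes without a 0 whose mean FPKM was 1 or more). Genes whose mean FPKM reached 0.1 entered a limma 3.58.1 fit under R 4.3.3 (eBayes with trend, 2 residual and 3.73 prior degrees of freedom) on log2(scaled FPKM + 0.1), with Benjamini-Hochberg adjustment over all 18596 genes. The pseudocount understates the change of low genes. The fit was tested on simulated data. The calling thresholds are those of the study's methods. The members and lists were chosen with earlier results of these data known. Genes named are all members, and, of each list, the called genes and the 3 with the highest levels, genes at 0 and the 5 genes of nearest profile, and others only where said.

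The p values and SE combine the spread between the 2 libraries of each group with that of other genes of like level. In the main fit the other genes had the larger weight, with 3.73 prior against 2 residual degrees of freedom. The number of libraries limits the precision, as does the depth for low genes. Alternatives were other pseudocounts and minimum values, unscaled values, quantile normalization, read equivalents in limma voom with TMM factors, no trend, the highest transcript alone, the replicate block and leaving out each library. Sequences are from RefSeq (GRCm38.p6) and GENCODE vM21, whose spans of the members equal those in the tables, and 8 of 10 members had a promoter in the RefSeq table. Some promoter matches are not reported here. Python 3.11.15 with pandas 2.3.3, Biopython 1.88 and matplotlib 3.10.9 was used for tables, sequences and figures.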

Additional observations from a re-analysis of the deposited data

How the results depend on the processing

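No member had an adjusted p under 0.05 in limma under any alternative run. Leaving out 1 library leaves a lone sample that is assumed to vary like the other group. The count of all genes called was 690, and it was 224 with a pseudocount of 1, 267 with a minimum mean FPKM of 1, 455 with limma voom and 1061 without the trend, and between 746 and 1924 without 1 library (1264 without Ob + Exe 1 and 1924 without Ob + Exe 2). The calls were 508 lower and 182 higher, and 416 lower and 246 higher after quantile normalization. The count of members called was 1, and it was 0 with a pseudocount of 0.01, a minimum mean FPKM of 1, limma voom, no trend or the highest transcript alone, and 0 to 1 without 1 library. With no minimum the member called was Bglap3 (log2 fold change −1.52, limma, adjusted p = 0.698), whose Ob + Exe libraries are both at 0, and not Bglap2. The Bglap2 value stayed below 0 in all 15 alternatives but lost its call in 9, and its adjusted p ranged from 0.179 to 1 in limma. Without 1 library, Alpl ranged from −0.069 (reversed, without Ob + Exe 1) to 0.30, Bglap from −1.13 to 0.066 (reversed, without Ob + Exe 2), Ibsp from −0.80 to 0.23 and Sparc from −0.0058 to 0.24 (both reversed without Ob 2); the cause was not tested. Runx2, Sp7 and Phex were below 0 under each alternative that gave a value, and none of these values was called, but sizes moved, Bglap included: Sp7 was −0.18 and Bglap −2.50 with the highest transcript alone, and Phex −0.05 after quantile normalization. The median of the members ranged from −0.53 to −0.17 without 1 library. The osteocalcin sum stayed below 0 in 14 alternatives, from −1.59 without Ob 1 to −0.38 without Ob 2.

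Replicate numbers 1 and 2 stand in both groups, but same-numbered libraries did not vary together. The correlation of the replicate differences was −0.106 over 18596 genes, and −0.235 over the 12409 with a mean FPKM of at least 1. Such a correlation cannot show whether same-numbered libraries shared a batch. With the replicate block, 776 genes were called, 28 genes had an adjusted p under 0.05 in limma, and the adjusted p of Bglap2 was 0.179 in limma (0.485 crossed). A block cannot move a fold change in this balanced design. With the crossed pairing, chosen after seeing the data, these counts were 782 and 6, and the adjusted p of the osteocalcin sum was 0.469 in limma. Depth limits Dmp1, Bglap3 and the shares of the osteocalcin genes.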
